A study of Mus musculus with 2 samples.

Results

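A stretch of mouse chromosome 8, from 53 to 111 Mb in the coordinates of build mm8, was described here in bins of 100 kb. It was chosen because it yielded more tags after precipitation with an antibody against Tbx3, relative to input, than the remainder of the chromosome. All 580 non-overlapping bins of the stretch are members, of 26290 bins on chromosomes 1 to 19 and X. They were selected on the ratio of ChIP to input tags, so that ratio is given as a description and without a test. The study used chromatin immunoprecipitation followed by sequencing (ChIP-seq) in untreated mouse embryonic stem cells to map Tbx3 binding. It has 1 Tbx3 ChIP library and 1 library of input, which is sonicated chromatin sequenced without antibody. Per the labels, the cells came from the lines D3 and R1 and were kept with leukaemia inhibitory factor on inactivated fibroblast feeders. Which of these lines gave the ChIP and which the input is not in the labels, nor whether feeder cells were removed.

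Tbx3 is a T-box transcription factor that is expressed in mouse embryonic stem cells and is known for its part in sustaining their undifferentiated state. A transcription factor bound to DNA gives narrow clusters of tags, much shorter than a gene, whereas input follows the amount of each genomic segment in the sample and how readily it is sheared, amplified and mapped. Cultured mouse embryonic stem cells are known to gain whole chromosomes or parts of them, chromosome 8 among them. Copy number was not measured here, and with 1 library per group the effects of precipitation, culture, cell line and library preparation cannot be told apart. Which genes lie in the stretch was not analysed here.

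On chromosomes 1 to 19 and X, 6881110 ChIP tags and 9982870 input tags were at distinct positions and strands, and input was scaled by 0.689, the ratio of these totals. The stretch held 229781 of the ChIP tags (3.34%) and 253793 of the input tags (2.54%). Of its 580 bins, 564 held input tags of at least 30% of the autosome median of 394 per bin. The other 16 held no tag of either library and formed a single gap, from 56.7 to 58.3 Mb. No bin has a replicate, and all intervals below cover counting error only. Tags are PCR products without molecular identifiers, so they are not certain to be independent molecules.

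In sum, ChIP tags exceeded scaled input in the stretch, and the remainder of chromosome 8 had fewer ChIP tags than scaled input. Summed over its bins, the stretch had a ratio of ChIP to scaled input of 1.31 (95% exact binomial interval 1.31 to 1.32). The remaining 741 bins of chromosome 8 had a ratio of 0.836 (0.832 to 0.841). The 23313 bins of the other autosomes had a ratio of 0.999 (0.9983 to 1.0003). The ratio of the stretch was thus 1.57 times that of the rest of its chromosome (95% exact conditional interval 1.56 to 1.58). It was 1.31 times that of the other autosomes (1.31 to 1.32). Part of the first quotient goes with a pile-up of input tags between 19 and 23 Mb. With that interval left out, a choice made after the data were seen, the rest of chromosome 8 stood at 0.888 and the quotient at 1.48 (1.47 to 1.49). Medians over bins, on which a pile-up has little weight, were 1.34 in the stretch, 0.895 in the rest of the chromosome and 1.03 on the other autosomes.

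**Figure D1:**
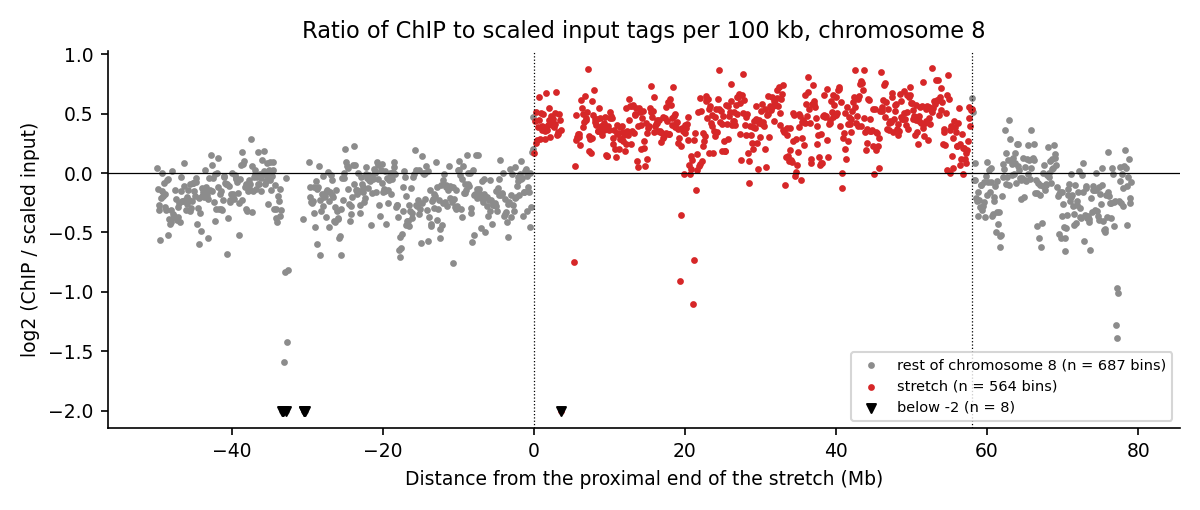
Log2 ratio of ChIP to scaled input tags in each 100 kb bin of chromosome 8 with enough input, against the distance in Mb from the proximal end of the stretch; red points are the 564 bins of the stretch, grey points the 687 other bins, dotted lines the ends given by the rule, and 8 bins below -2 are drawn at -2 as triangles. The medians are 0.42 in the stretch and -0.16 in the other bins, and the change at either end is abrupt.

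The 2 libraries were also read separately, because a raised ratio can come with more ChIP tags or with fewer input tags. ChIP tags were denser inside the stretch. The median bin of the stretch had 416 ChIP tags (interquartile range 342 to 474). The median was 294 (249 to 327) in the rest of chromosome 8 and 287 (237 to 325) on the other autosomes. Relative to the other autosomes, the median ChIP density was 1.45 in the stretch and 1.02 in the rest of chromosome 8. The medians of the 18 other autosomes, each taken alone, ran from 0.929 to 1.101 on this scale, so the stretch lay above all of them.

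Input had another profile along the chromosome. A bin of the stretch held a median of 428 input tags (363 to 532), 1.09 times the median of the other autosomes and within the range of their own medians, 0.906 to 1.13. The rest of chromosome 8 held 468 (388 to 546), which is 1.19 times that median and above that range. Input density was therefore lower inside the stretch than outside it, by a smaller margin than ChIP density was higher. The 2 flanks differed: before the stretch the relative densities were 0.956 for ChIP and 1.13 for input, and after it they were 1.13 and 1.32. Both libraries were denser in the distal flank, while its ratio, 0.895, was close to that of the chromosome outside the stretch and the pile-up.

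**Figure D2:**
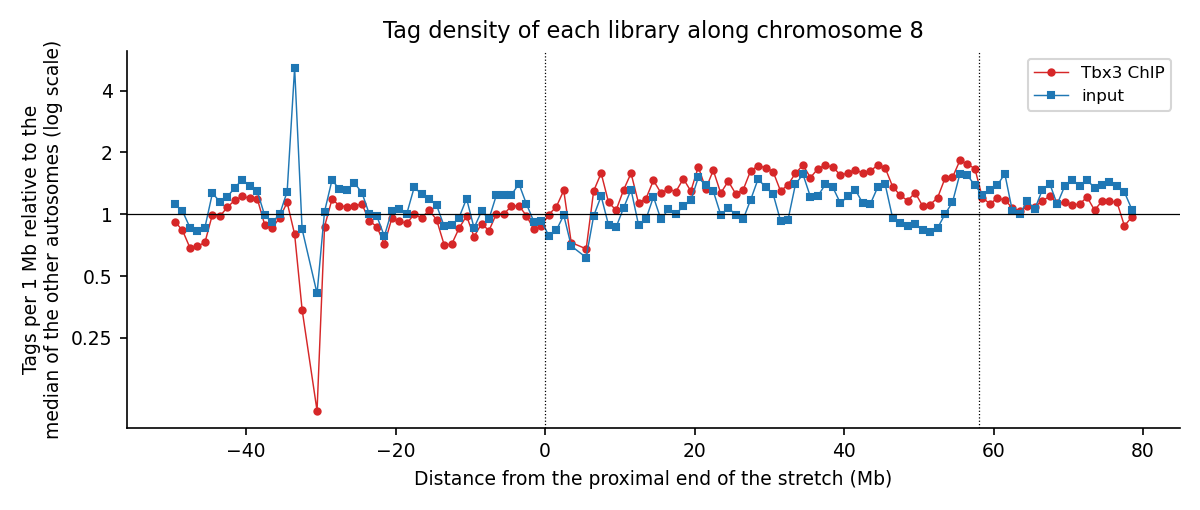
Tags per 1 Mb bin of chromosome 8 in the Tbx3 ChIP library (red circles) and in input (blue squares), each divided by its median over the other autosomes, on a log axis against the distance in Mb from the proximal end of the stretch; dotted lines mark the ends of the stretch. Red lies above blue in nearly all bins between the dotted lines and below it in most others, and the isolated blue maximum on the left is the input pile-up.

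The change at either end could be placed within a short distance, as a single step whose width was not fitted. Steps were located on 10 kb bins within 3 Mb of each end, as the position that best divides the ChIP share of tags by binomial likelihood. The proximal step fell at 52.77 Mb, with positions from 52.76 to 52.78 Mb within 2 log-likelihood units of the best. The distal step fell at 111.21 Mb, with such positions from 111.21 to 111.36 Mb. Both lay just outside the ends of the rule. With the ends moved to the steps, a choice made after the data were seen, the ratio of the stretch was 1.31 and the quotient over the rest of the chromosome 1.58.

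At the proximal step, the 1 Mb before it had 2314 ChIP and 3733 input tags, a ratio of 0.899 (0.853 to 0.947). The 1 Mb after it had 2922 ChIP and 3235 input tags, a ratio of 1.31 (1.25 to 1.38). Here ChIP density was 1.26 times as high inside as outside and input density was 0.867 times as high, so both libraries contributed to the step. At the distal step, the last 1 Mb inside had 4735 ChIP and 5166 input tags, a ratio of 1.33 (1.28 to 1.38). The next 1 Mb had 3050 and 4989, a ratio of 0.887 (0.848 to 0.928). ChIP density was 1.55 times as high inside as outside there, and input density 1.04 times. The quotients inside over outside were 1.46 (1.35 to 1.57) at the proximal and 1.499 (1.41 to 1.59) at the distal step, and their intervals overlapped. Because each step was placed where the ratio changed most, these values describe the ends and do not test them.

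**Figure D3:**
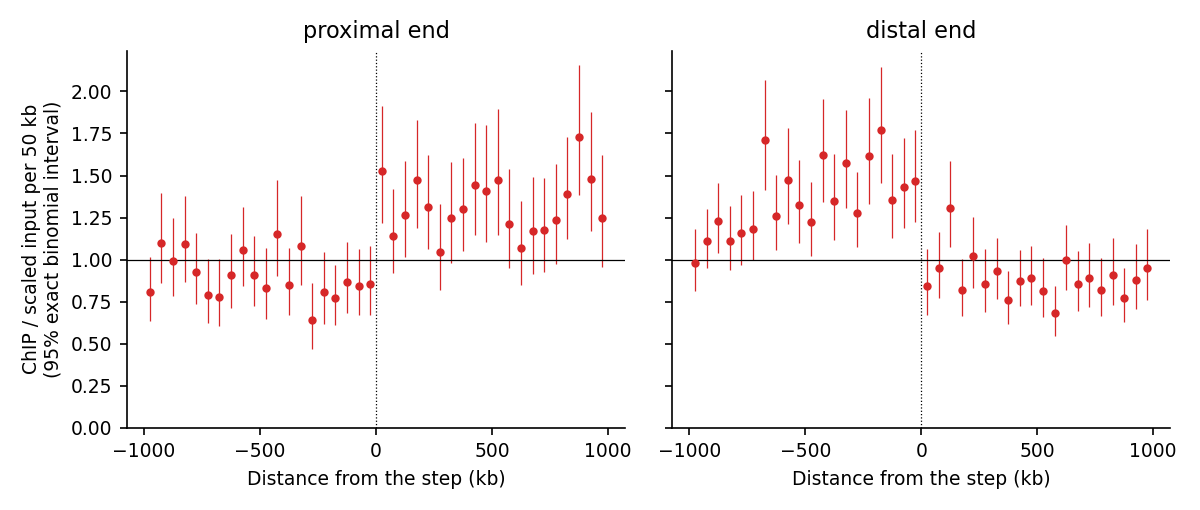
Ratio of ChIP to scaled input tags per 50 kb within 1 Mb of the proximal step (left) and of the distal step (right), against the distance in kb from the step; points are single 50 kb bins and bars their 95% exact binomial intervals. The last bin outside and the first inside stand at 0.854 and 1.53 on the left, and the last inside and the first outside at 1.47 and 0.844 on the right. The nearest 6 bins run from 0.638 to 0.869 outside and 1.04 to 1.53 inside on the left. On the right the nearest 6 run from 1.28 to 1.77 inside and 0.820 to 1.31 outside, so they overlap in value.

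The bins nearest to the ends of the rule followed these steps rather than the round positions. Outside the proximal end, the bins that begin at 52.5 and 52.6 Mb had ratios of 0.731 and 0.820. The next 3, at 52.7, 52.8 and 52.9 Mb, had 1.13, 1.15 and 1.38. Inside, the first 5 bins ran from 1.13 to 1.42, with 261 to 340 ChIP tags and 268 to 364 input tags each. At the distal end, the last 5 bins inside ran from 1.32 to 1.47. The first 2 bins outside still had 1.55 and 1.43, and the following 3 had 0.961, 1.06 and 0.959. The members just inside and the bins just outside thus overlapped in value at both ends, since the steps lie up to 230 kb outside the rule.

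Nearly all bins of the stretch shared the raised ratio. Of the 564 with enough input, 547 had more ChIP than scaled input tags, and 454 (80.5%) reached a ratio of 1.2. Over all autosomal bins with enough input, the stretch included, 13615 of 23710 had more ChIP than scaled input tags, and 13.9% reached 1.2. In the rest of chromosome 8, 132 of 687 had more ChIP than scaled input tags, and 8 (1.16%) reached 1.2. A ratio of 1/1.2 or less was found in 6 bins of the stretch (1.06%) and in 210 of the rest of the chromosome (30.6%), with 10.6% over all autosomes. These counts use the contrast that selected the stretch, so they describe its evenness only. In bins of 1 Mb, 48 of 57 reached 1.2, against 4.22% of autosomal 1 Mb bins, and the values ran from 0.997 to 1.55. On the other autosomes, 53 of 2265 such bins reached 1.2, never more than 2 in a row, while chromosome 8 had a run of 21.

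No other autosome held a stretch of this length with such a ratio. Windows of 58 Mb were moved along the other autosomes in steps of 100 kb, with those short of input left out. Their ratios lay between 0.866 and 1.09, and all 18 of these chromosomes were long enough to give a window. The largest 1 Mb value on another autosome was 1.36, and 1 of the 2265 bins reached the median of the stretch, 1.33. For a change of ratio in the other direction, the 120 bins of chromosome 6 from 72 to 84 Mb had a ratio of 0.596 (0.585 to 0.606). There the median ChIP density was 0.448 and the median input density 0.821 of the other autosomes, so it was again mainly the ChIP library that changed level.

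**Figure D4:**
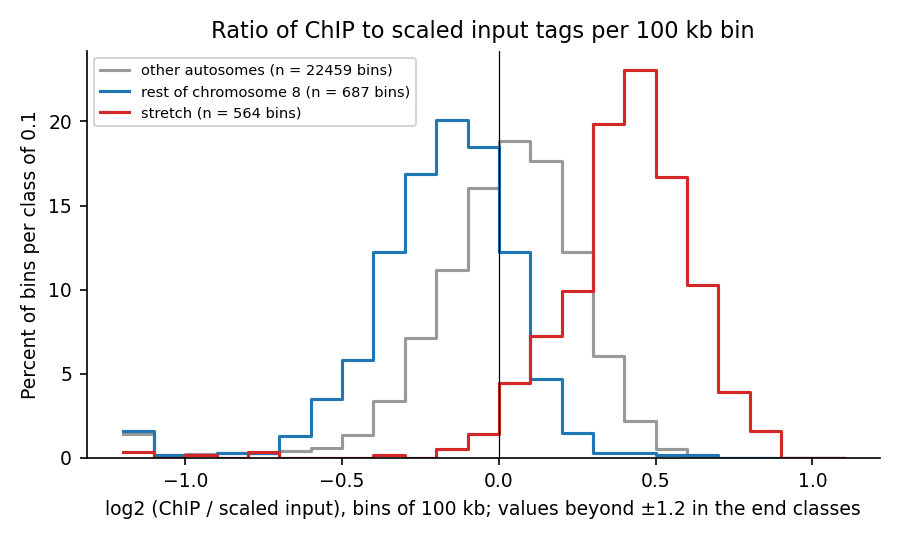
Percent of 100 kb bins with enough input in each class of log2 ratio of ChIP to scaled input tags (classes of 0.1, with values beyond 1.2 in either direction in the end classes), for the stretch (red, 564 bins), the rest of chromosome 8 (blue, 687) and the other autosomes (grey, 22459). The red distribution is displaced as a whole, with 17 of its bins below 0, against 555 of the blue and 9523 of the grey.

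Along the stretch the ratio varied modestly. In 10 sections of 5.8 Mb, the ratio ran from 1.218 (1.198 to 1.239), between 70.4 and 76.2 Mb, to 1.41 (1.38 to 1.44), between 99.4 and 105.2 Mb. The other 8 sections lay between 1.27 and 1.35. The interval of the highest overlapped none of theirs, and that of the lowest overlapped only that of the first section (1.237 to 1.296). The section of lowest ratio held 39 of 58 bins at or above 1.2 and the section of highest ratio 57 of 58. The latter also had the lowest median input density of the 10, 342 tags per bin, against 489 in the former. Other sections did not keep this order. The section from 93.6 to 99.4 Mb had the highest median input, 515.5, and a ratio of 1.35, while the first section had 352.5 and 1.27. By the median over bins, the section from 87.8 to 93.6 Mb was highest, at 1.389 against 1.385 between 99.4 and 105.2 Mb.

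Single bins differed from each other by more than counting error, in the stretch as elsewhere. The spread of the log2 ratio, as a standard deviation taken from the interquartile range, was 0.17 in the stretch, 0.20 in the rest of chromosome 8 and 0.21 on the other autosomes. Counting error alone gives 0.099, 0.11 and 0.11. Between neighbouring bins the spread was 0.13, 0.15 and 0.15. The raised ratio therefore came without a wider spread.

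The 5 bins of highest ratio were close together in value. The bin at 105.6 Mb held 453 ChIP and 356 input tags, a ratio of 1.85 (1.603 to 2.13). Those at 60.1, 77.5, 95.4 and 96.7 Mb had ratios between 1.82 and 1.83. All 5 intervals overlapped, so their order is not resolved at this depth. The bin with most ChIP tags, at 108.7 Mb, held 581 against 643 input tags, a ratio of 1.31, and the bin with most input tags, at 73.6 Mb, held 505 ChIP and 739 input tags, a ratio of 0.991. The bin at 96.7 Mb combined a high ratio with 578 ChIP tags, close to that largest count.

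The 5 bins of lowest ratio were local losses of ChIP tags or local excesses of input tags. The lowest, at 56.6 Mb and next to the gap without tags, had 46 ChIP and 533 input tags, a ratio of 0.1252 (0.0906 to 0.169). Of its input tags, 495 lay in a single piece of 10 kb, which held 15 ChIP tags. Without that piece the bin had 31 ChIP and 38 input tags and a ratio of 1.18. The bins at 74.0 and 74.1 Mb had ratios of 0.466 (0.386 to 0.559) and 0.602 (0.514 to 0.703). The bin at 72.3 Mb had 0.531 (0.431 to 0.651) and that at 58.3 Mb, on the other side of the gap, had 0.596 (0.491 to 0.721). Without the densest 10 kb of each, these 4 had ratios between 0.440 and 0.730, still below 1.

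Within the stretch, a few intervals had input tags and almost no ChIP tags. They were sought as distances between neighbouring ChIP tags that span at least 20 input tags. There were 27, which merged into 18 intervals when less than 2 kb apart, and 3 of these were longer than 10 kb. From 72349529 to 72396025 there were 4 ChIP and 150 input tags, where the ratio of the stretch would give 136 ChIP tags. From 107740009 to 107762186 there were 1 ChIP and 104 input tags, where 94.2 ChIP tags would be given. From 58388052 to 58407602 there were 0 ChIP and 122 input tags, where 110 would be given. The search picked these intervals for their lack of ChIP tags, so the counts describe them only. Such distances numbered 0.498 per covered Mb in the stretch (95% exact Poisson interval 0.328 to 0.725). They numbered 3.51 (3.07 to 3.99) in the rest of chromosome 8 and 1.38 (1.33 to 1.43) on the other autosomes. A higher ChIP density leaves fewer distances without a tag by itself, and the pile-up between 19 and 23 Mb lies in the rest of the chromosome.

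Bins with more input tags had lower ratios in rank order in all 3 parts compared, and the stretch had the highest median ratio in each class of input count. The rank correlation between ratio and input tags per bin was -0.48 over the 564 bins of the stretch, -0.46 in the rest of chromosome 8 and -0.41 on the other autosomes. The input count enters both quantities, so a negative value arises in part from its counting error, and no test is given. The bins were then divided at the input counts that split the other autosomes into 5 equal classes. In the stretch, 199 of the 564 bins (35.3%) fell in the class of most input, of 487 tags or more. The share was larger in the rest of chromosome 8, 302 of 687 bins (44.0%), and was 20.3% on the other autosomes. In that class the median ratio was 1.22 in the stretch, 0.836 in the rest of chromosome 8 and 0.897 on the other autosomes. In the other 4 classes the medians of the stretch were 1.38 to 1.42, with no steady fall from class to class. Class by class, the stretch was 1.46 to 1.52 times the rest of its chromosome and 1.27 to 1.39 times the other autosomes.

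At the scale of 1 kb, ChIP tags were more frequent at every input count from 1 to 10. With 4 input tags in the 1 kb, the mean number of ChIP tags was 4.32 in 8625 pieces of the stretch (95% exact Poisson interval 4.28 to 4.37). It was 2.96 (2.93 to 2.99) in 10427 pieces of the rest of chromosome 8 and 2.98 (2.97 to 2.98) in 362811 pieces of the other autosomes. From 1 to 10 input tags, the mean of the stretch was 1.34 to 1.5002 times that of the other autosomes, while that of the rest of chromosome 8 was 0.968 to 1.02 times. A count this low in 1 kb is itself uncertain, so pieces of equal count are not pieces of equal underlying density. Of the 1 kb pieces with a tag of either library, 4.75% had no ChIP tag in the stretch. This share was 8.56% in the rest of chromosome 8 and 9.62% on the other autosomes. In the same order, pieces with 8 or more ChIP tags made up 10.4%, 2.25% and 2.20%, and those with 20 or more made up 0.0277%, 0.0182% and 0.0229%.

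**Figure D5:**
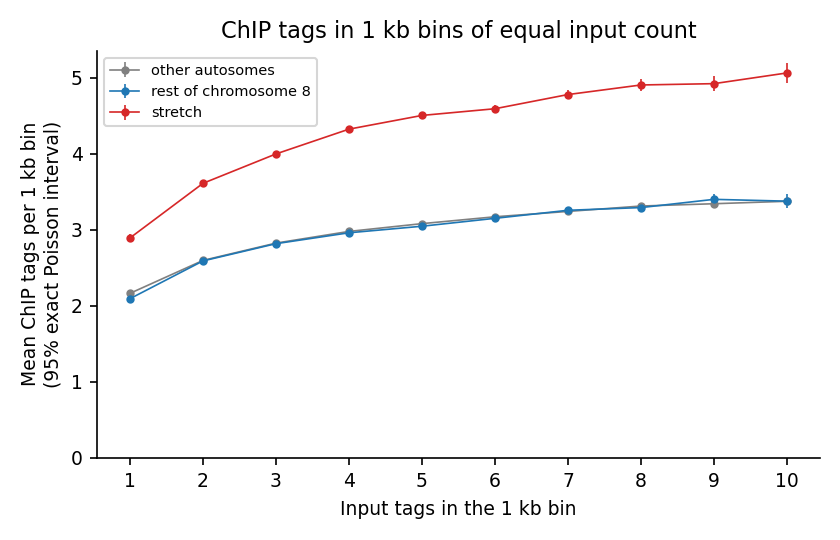
Mean number of Tbx3 ChIP tags in 1 kb pieces with the same number of input tags, from 1 to 10, in the stretch (red), the rest of chromosome 8 (blue) and the other autosomes (grey); bars are 95% exact Poisson intervals, many of them smaller than the points. Blue lies at 0.968 to 1.02 times grey, and red lies at least 1.34 times above grey.

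Both strands carried the raised ratio alike. Plus-strand tags made up 50.03% of ChIP tags in the stretch (95% exact binomial interval 49.8% to 50.2%) and 50.04% of input tags (49.8% to 50.2%). With plus-strand or minus-strand tags alone, the ratio of the stretch was 1.31 either way. Repeated tags were rare in it: 2014 of 255807 input tags (0.787%) repeated a position and strand, against 1.214% before the stretch, 0.540% after it and 6.24% of all input tags. The ChIP list holds no repeats in any region, so only the input can be read this way.

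Narrow clusters of ChIP tags were sought in the stretch with a scan for enriched regions. It compared windows of 300 bp with a local rate, the higher of scaled input and the average ChIP rate of the genome. Windows were called at a Benjamini-Hochberg adjusted p under 0.05 (exact Poisson test, one-sided), and 0.0121% of those with a tag were called. The test compares these libraries and not conditions. Of the 1147 regions called, 80 lay in the stretch, and they held 1013 of its ChIP tags, or 0.441% (95% exact binomial interval 0.414% to 0.469%). The share was lower elsewhere, 0.178% in the rest of chromosome 8 and 0.301% on the other autosomes. At the ratio of the other autosomes, the stretch would have had 54965 ChIP tags fewer than it did. With all called regions left out of both libraries, its ratio was 1.31. Clusters too weak to be called, under 8 tags in a window, are not covered by these values.

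Called regions were more frequent in the stretch than elsewhere, and that excess depended on the local rate. There were 1.48 per covered Mb in the stretch (95% exact Poisson interval 1.17 to 1.84), 0.348 (0.221 to 0.522) in the rest of chromosome 8 and 0.471 (0.442 to 0.5005) on the other autosomes. When input was scaled separately in every 1 Mb of the genome, up or down, by the ratio of that 1 Mb, 43 of the 80 were called and no others in the stretch. That is 0.794 per covered Mb (0.574 to 1.07), against 0.496 outside chromosome 8 and 0.545 in the rest of it. When the lowest permitted local rate was set to the ChIP rate of the 1 Mb instead of the genome, 46 of the 80 were called, or 0.849 per covered Mb (0.622 to 1.13), against 0.423 outside chromosome 8 and 0.318 in the rest of it. With both changes together, a choice made after the data were seen, 35 were called, or 0.646 per covered Mb (0.450 to 0.898). The rates were then 0.489 outside chromosome 8 and 0.484 in the rest of it, both within that interval. An adjusted p under 0.01 in place of 0.05 left 39, or 0.720 per covered Mb (0.512 to 0.984), against 0.303 outside chromosome 8 and 0.182 in the rest of it.

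The 80 regions were weak as a group. The median ChIP count of their top windows, those of smallest p, was 10 (interquartile range 8 to 13), and 48 of the 80 held 10 or fewer. On the other autosomes the median was 11 (9 to 16) and 40.7% held 10 or fewer. Over the local rate, the median enrichment was 9.33 in the stretch and 9.37 on the other autosomes. That rate was never below the average ChIP rate of the genome, 0.854 tags per 300 bp. A window of 8 tags at that lowest rate has an enrichment of 9.37, the median of the other autosomes. The 2 medians therefore do not compare enrichment over input alone. Over the ChIP library's own level, taken from the remainder of the 100 kb bin, the medians were 7.39 (interquartile range 6.19 to 9.39) and 12.1 (9.73 to 16.8). That own level had a median of 1.42 ChIP tags per 300 bp around the regions of the stretch and 0.963 around those of the other autosomes. The stretch was chosen for its high ChIP ratio, so a lower enrichment over its own level was partly built in. The regions stood in 70 of the 580 bins, with at most 3 in a single bin. The first 5.8 Mb of the stretch held 0 and the section from 76.2 to 82 Mb held the most, 15.

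A minority of the regions stood out clearly from the surrounding ChIP tags. The region of smallest adjusted p, from 108856001 to 108856700, held 49 ChIP and 3 input tags in its top window. It was enriched 31.0-fold over the local rate (95% exact Poisson interval 22.9 to 41.0) and 33.0-fold over the ChIP level of its own bin. Next came the region from 60624801 to 60625400, with 47 ChIP and 3 input tags. It was enriched 16.7-fold over the local rate (12.2 to 22.2) and 32.0-fold over its own bin, with an adjusted p of 1.4e-34 (exact Poisson test, Benjamini-Hochberg). The region from 84788901 to 84789700 held 27 ChIP and 2 input tags and was enriched 23.8-fold (15.7 to 34.6). That from 77704701 to 77705300 held 27 and 1 and was enriched 22.96-fold (15.1 to 33.4). The interval of the first region lay above that of the second, and all other pairs among these 4 overlapped. These intervals leave out the counting error of the local rate, so they do not settle the order of the regions. Over their own bins the first and second were nearly equal, at 33.0- and 32.0-fold.

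The other 6 of the 10 regions with the smallest adjusted p followed at 8.87- to 18.2-fold over the local rate. That from 108716201 to 108716900 held 26 ChIP and 5 input tags and lies in the bin with most ChIP tags. That from 88331601 to 88332300 held 24 and 2, and that from 100286001 to 100286500 held 22 and 2. The region from 91893501 to 91894000 held 24 ChIP and 4 input tags, that from 77921901 to 77922400 held 19 and 2, and that from 98697001 to 98697500 held 20 and 3. All 10 were also called under each of the 7 other settings of the scan, though with windows of 600 bp 8 of the 10 had an enrichment over 1.5 times lower, and the 10 then ran from 5.56- to 16.3-fold. Of these settings, an adjusted p under 0.01 and the removal of regions with 10 or more input tags could not drop any of the 10. The remaining 70 regions held at most 22 ChIP tags in the top window and were enriched 3.34- to 11.7-fold.

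In most of the regions the tags of the minus strand sat downstream of those of the plus strand, the arrangement that fragments around a bound site give. Of the 74 regions with at least 3 tags on each strand within 200 bp of the top window, 66 had such an offset, and the median was 114 bp. In the 10 regions named it ran from 49 to 207 bp. Tags of both strands had been moved by 62 bp before calling. That move selects for an offset of about this size in any called window, so the offsets do not test binding. They were not compared with those of regions elsewhere. Without the move, 63 regions were called in the stretch, which overlapped 46 of the 80.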

How the data were processed

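The deposited files list mapped tags of 1 Tbx3 ChIP and 1 input library, on mm8 per the submitters' processing notes. The aligner is not given in the sources used here, nor are its filters. The ChIP list gives the 5′ position and strand and holds no repeats. The input list gives both ends of 35 bp tags with repeats kept.

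Repeats were collapsed and the tags counted by 5′ end in bins that start at multiples of 100 kb (Python 3.11.15, numpy 2.4.6, pandas 2.3.3, scipy 1.17.1). Bin ratios were read where input reached 30% of the autosome median. Intervals are at 95%. Enriched regions came from windows of 300 bp every 100 bp, with tags moved by 62 bp, against a local rate, the highest among the average ChIP rate of the genome and scaled input in 1, 5 and 10 kb. Programs were tested on simulated data with a planted stretch and planted clusters. The bins named are the 5 highest and lowest ratios, the 5 on either side of each end, and those with most tags; the regions named are the 10 of smallest adjusted p. The members and lists were chosen with earlier results of these data known.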

Additional observations from a re-analysis of the deposited data

How the results depend on the processing

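No paired analysis was possible because each group has 1 library. The ratio of the stretch stayed within its counting interval under 7 of 9 alternatives. It was 1.39 with all tags kept and 1.28 with input scaled by the median bin ratio. The ratio of the rest of chromosome 8 was 0.883 and 0.813 under these 2, and 0.888 with 19 to 23 Mb left out, against 0.836; the other 7 of 10 stayed within its interval. The quotient of the stretch over the rest of the chromosome stayed within its interval under 9 of 10 and was 1.48 with 19 to 23 Mb left out. That interval holds an input pile-up, and the deposited ChIP list holds no repeats. Alternatives that only rescale input are among the 9 and cannot change the quotient, so they are no check of it. The count of 454 bins at a ratio of 1.2 became 861 with bins of 50 kb and 235 with bins of 200 kb, which change the number of bins (76.6% and 83.0% of those with enough input), and lay between 342 and 508 under the other 10. The number of enriched regions in the stretch was 80. It was 43 with input scaled per 1 Mb, 46 with the lowest rate set per 1 Mb, 35 with both and 39 at an adjusted p under 0.01, and lay between 63 and 91 under the other 3. The alternatives with 19 to 23 Mb left out, the ends at the steps, both rates together, and those for single bins and regions were added after the data were seen. Depth limits single 100 kb bins to a counting error of 0.099 on the log2 scale, and fewer than 8 tags in 300 bp were never called.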
